A study of Homo sapiens with 96 samples.

Results

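The step from 100 to 500 µg/mL of an ethanol extract of Paeoniae Radix, a peony root of East Asian medicine, was examined in A549 cells by RNA sequencing. A549 is an established line of human lung adenocarcinoma, with intact p53, a deletion of CDKN2A and a mutation of KEAP1. The comparison holds 6 of the 96 libraries of the series, 3 from cells given the ethanol extract at 500 µg/mL and 3 from cells given it at 100 µg/mL, all in batch 1, with extract and dose taken from their labels. No library of vehicle-treated cells entered it. The labels name no modification of the line and no other agent for these groups. The series also holds a water extract and the ethanol extract at a lower dose in the same batch, and 8 single ingredients in the other batch. The water extract at 500 and 100 µg/mL (3 libraries each) served to test whether its step over the same doses differed, and the ethanol extract at 20 µg/mL (3 libraries) was set beside the step. How long the cells were exposed is not stated in the labels. The labels number the libraries of a group but do not call them separate cultures, so every p-value reflects only how much these libraries vary, and that variation may be technical.

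As background, a dividing cell makes many of its mitotic transcripts late in the cycle, under the DREAM complex and B-MYB with FOXM1, and p53 represses them through the cyclin-dependent kinase inhibitor p21. Hypoxia-inducible factors (HIF) are transcription factors whose alpha subunits are marked for destruction by prolyl hydroxylases that need oxygen and iron, and they raise genes of glucose use and angiogenesis. Heat shock factor and the unfolded protein response raise chaperones of the cytosol and of the endoplasmic reticulum. In A549 cells the loss of KEAP1 function keeps the NRF2 antioxidant programme high.

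Libraries of the 6 samples held 21056789 to 28136782 expected counts. Levels are given as CPM, counts scaled to the TMM-adjusted library size in the usual way, for each library in the order of its label number. The share of counts from 37 mitochondrial genes was 16.8 ± 0.88% at 500 µg/mL and 16.3 ± 0.82% at 100 µg/mL (SD, n = 3 each), a difference within the spread (exact two-sided permutation test, p = 0.5, the smallest possible being 0.1). In label order the shares were 15.9, 16.9 and 17.7% at 500 µg/mL and 15.6, 16.1 and 17.2% at 100 µg/mL. They rose with the number in both groups, and at each number the share was higher at 500 µg/mL. The test did not pair libraries by number. The 8 epithelial markers all reached 1 CPM, and CDKN2A had no count in any of the 6 libraries. Of 12 alveolar and airway markers 5 reached 1 CPM, and the lung lineage marker NKX2-1 and all surfactant genes on the list stayed below the filter on low counts. Summed fibroblast markers (2 of 6 reaching 1 CPM) ranged from 47.4 to 52.4 CPM at 100 µg/mL and from 60.7 to 62.3 CPM at 500 µg/mL, most of it COL1A1. Summed blood markers (1 of 7 reaching 1 CPM, CD68) ranged from 9.61 to 11.7 and from 18.1 to 22.2 CPM. No endothelial (0 of 4) or liver marker (0 of 3) reached 1 CPM, and CD3E and KDR had no count. Whether other cells had a part in any result was not tested.

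The step was large. Of 16766 genes tested 11199 passed the edgeR quasi-likelihood test at an adjusted p under 0.05, 5710 higher (34.1%) and 5489 lower (32.7%) at 500 µg/mL. Of these 1219 were at least 2-fold higher (7.27%) and 985 at least 2-fold lower (5.87%), and 272 and 186 passed 4-fold. The median log2 change of all genes, which TMM scaling holds near 0, was 0.011 and the median size 0.38. With a common coefficient of variation of 0.0414 between libraries even small changes passed, so the size of a change is given throughout, as a log2 change ± its standard error (SE). This SE was worked back from the log2 change and the test statistic, so it is not an estimate apart from the p-value. On the leading principal component, which held 54.2% of the variance among the 18 extract libraries, the libraries at 500 µg/mL lay at -80.4 to -79.0 and those at 100 µg/mL at 10.3 to 11.6. The other 12 libraries, from lower doses or water extract, lay at 15.6 to 17.97.

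Among single genes the largest rise was that of MYOD1, a regulator of muscle differentiation. It had no count in the 3 libraries at 100 µg/mL and stood at 22.8, 23.4 and 24.7 CPM at 500 µg/mL, at least 610.6-fold higher (floor of 3 counts over the group). Its gene lies at chr11:17719571-17722136 (GRCh38.p14). Of the 12 largest rises 7 were in genes of the hypoxia and glycolysis lists. The hexokinase gene HK2 (chr2:74834127-74893359) had 0.671, 0.718 and 0.626 CPM at 100 µg/mL and 19.9, 22.1 and 21.5 CPM at 500 µg/mL, a log2 change of 4.96 ± 0.14 (edgeR adjusted p = 1.25e-17). PPFIA4, which encodes a liprin, rose by 3.99 ± 0.18, CA9, the hypoxia-induced carbonic anhydrase, by 3.89 ± 0.11, and NDRG1 by 3.505 ± 0.048. IGFBP1, a secreted binding protein of insulin-like growth factors, rose by 3.83 ± 0.15, the secreted glycoprotein STC2 by 3.42 ± 0.064 and TMEM158 by 3.498 ± 0.12. The trefoil factor TFF1 (3.25 ± 0.15), the chemokine CXCL8 (3.12 ± 0.15), the prolyl hydroxylase EGLN3 (3.07 ± 0.059) and the aldolase ALDOC (3.07 ± 0.11) completed the 12. In every one of these 12 genes the 3 libraries at 500 µg/mL lay above the 3 at 100 µg/mL, which the choice of genes required.

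Of the 12 largest falls 3 were in mitotic genes and 3 in metabolic enzymes known from the liver (SDS, CPS1 and BAAT). SDS, a serine dehydratase, fell from 17.4, 16.6 and 13.3 CPM to 0.658, 0.725 and 0.827 CPM (log2 -4.40 ± 0.16). CPS1, which feeds the urea cycle, changed by -2.82 ± 0.072, and BAAT, which conjugates bile acids with amino acids, by -2.84 ± 0.10. DLGAP5, a spindle protein, HMMR, a hyaluronan receptor that also binds the spindle, and the kinesin CENPE are described below with the mitotic genes, and the heat shock gene HSPA1A with the chaperones. PIF1, a DNA helicase, changed by -3.10 ± 0.12, the neurotrophin receptor NTRK3 by -2.67 ± 0.058 and the focal adhesion protein TNS4 by -2.54 ± 0.068. CPLX2, which encodes the vesicle fusion regulator complexin, stood at 960.4, 992 and 989 CPM and fell to 163, 159 and 179 CPM (log2 -2.55 ± 0.057, edgeR adjusted p = 3.16e-19).

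**Figure D1:**
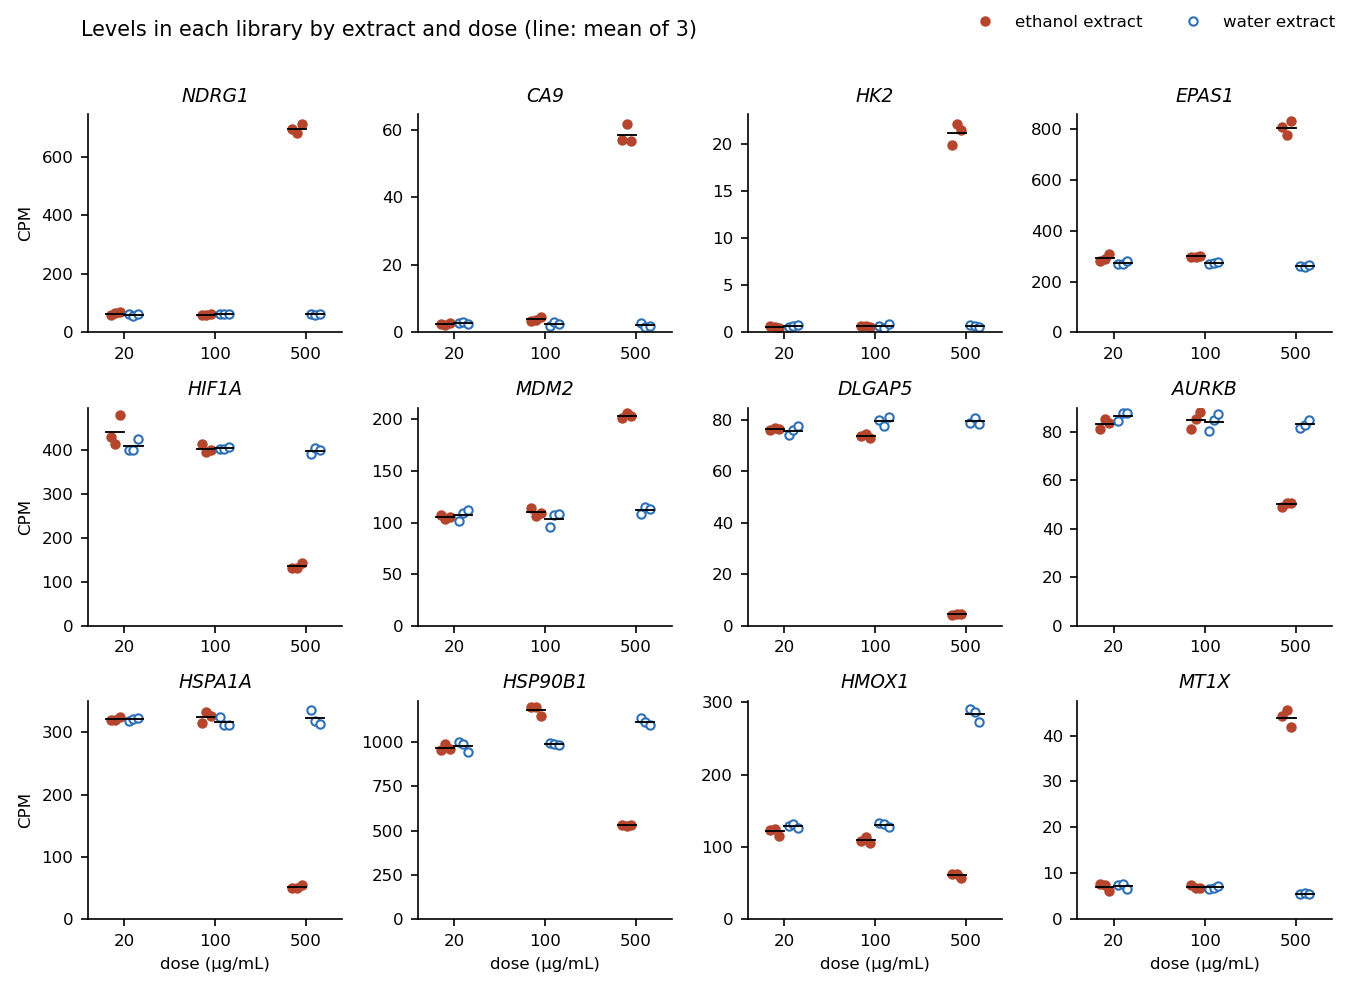
Level (CPM) of 12 genes in each library by dose, for the ethanol extract (filled red) and the water extract (open blue), with a line at the mean of 3 libraries. Every panel has its own axis from 0, and the ethanol extract at 500 µg/mL stands apart from the other groups in each, while the HMOX1 panel also shows a raised level with the water extract at 500 µg/mL.

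Mitotic genes fell at 500 µg/mL. Of 103 tested genes of mitosis 81 fell, 8 rose and 14 did not pass, with a median log2 change of -0.62 beside 0.011 for all genes, and 17 fell at least 2-fold. In RNA of whole cultures, fewer cells in mitosis and less transcript per cell cannot be told apart. DLGAP5 had 73.7, 74.5 and 72.7 CPM at 100 µg/mL and 3.99, 4.55 and 4.57 CPM at 500 µg/mL, a log2 change of -4.07 ± 0.050 (edgeR adjusted p = 2.93e-23). Its gene lies at chr14:55148135-55191585. All 3 libraries at 500 µg/mL lay far under those at 100 µg/mL, and the fall was the largest among the 103 genes.

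The promoters of 2 mitotic genes with large falls, DLGAP5 and HMMR, show the sequence elements for which this gene class is known. The cell cycle homology region is read here as TTTGAA or TTCGAA and the CCAAT box, bound by NF-Y, as ATTGG, each on either strand. No match of one overlaps a match of the other in the windows shown. The 250 bases before the RefSeq start of DLGAP5 (GRCh38.p14, chr14:55191586-55191835, minus strand) and HMMR (chr5:163460382-163460631, plus strand) are given 5′ to 3′ with these elements in capitals.
DLGAP5: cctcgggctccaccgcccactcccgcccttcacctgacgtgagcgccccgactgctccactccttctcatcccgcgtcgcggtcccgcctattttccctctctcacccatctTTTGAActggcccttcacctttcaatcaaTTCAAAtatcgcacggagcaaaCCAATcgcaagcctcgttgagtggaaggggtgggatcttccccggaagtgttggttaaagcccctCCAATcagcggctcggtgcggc
HMMR: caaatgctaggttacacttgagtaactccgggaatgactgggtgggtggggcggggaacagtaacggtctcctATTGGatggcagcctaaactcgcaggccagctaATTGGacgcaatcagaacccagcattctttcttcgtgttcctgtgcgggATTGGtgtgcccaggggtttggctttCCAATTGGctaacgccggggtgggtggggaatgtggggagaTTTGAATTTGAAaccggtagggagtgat
DLGAP5 held 2 TTTGAA elements and 2 CCAAT boxes, the TTTGAA elements beginning 138 and 109 bases before the start. HMMR held 2 TTTGAA elements in direct succession, 28 and 22 bases before the start, and 5 CCAAT boxes, a pair of which overlap as CCAATTGG. In windows from 250 bases before to 50 after the start, TTTGAA occurred in 59.3% of the 86 mitotic genes with a window, in 9.8% of the 11663 tested genes with one and in 15.4% of all 27305 windows in the table. TTCGAA occurred in 8.1%, 1.7% and 1.5% of these sets, and ATTGG in 66.3%, 36.1% and 35.7%. These shares describe the genes' promoters and include mitotic genes that did not fall.

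By role, 11 of 16 entry kinases, phosphatases and cyclins fell and 3 rose. Cyclin B1, CCNB1, which activates CDK1 for mitotic entry, had 164, 167 and 157 CPM at 100 µg/mL and 47.1, 48.7 and 46.6 CPM at 500 µg/mL (log2 -1.78 ± 0.043). The polo-like kinase PLK1 changed by -1.46 ± 0.049 and cyclin A2, CCNA2, by -0.90 ± 0.041. The transcription factors that drive the late cell cycle genes moved the other way, FOXM1 by 0.31 ± 0.042 (edgeR adjusted p = 1.27e-06) and MYBL2 by 0.44 ± 0.045 (edgeR adjusted p = 1.51e-08), as did the kinase MASTL at 0.45 ± 0.044. Of the 9 Aurora and passenger genes 7 fell, and HASPIN, the kinase that marks histone H3 to recruit the passenger complex, rose by 0.54 ± 0.058. AURKB, the Aurora B kinase, had 81.3, 85.3 and 88.02 CPM at 100 µg/mL and 48.9, 50.7 and 50.8 CPM at 500 µg/mL (log2 -0.76 ± 0.040, edgeR adjusted p = 3.03e-13). INCENP changed by -0.62 ± 0.049, BIRC5, or survivin, by -0.68 ± 0.035, and CDCA8, or borealin, by -0.86 ± 0.050. AURKA, the kinase of the spindle poles, changed by -1.69 ± 0.039.

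Among kinesins and spindle proteins 24 of 27 fell. HMMR had 56.3, 55.3 and 56.7 CPM at 100 µg/mL and 8.97, 8.05 and 9.22 CPM at 500 µg/mL (log2 -2.68 ± 0.051) and CENPE, the motor that carries chromosomes to the spindle equator, 70.4, 63.3 and 64.01 CPM at 100 µg/mL and 9.77, 11.3 and 11.4 CPM at 500 µg/mL (log2 -2.60 ± 0.065). The kinesin KIF20A, needed in cytokinesis, changed by -1.84 ± 0.046. ECT2, which activates RhoA at the cleavage furrow, was the exception and rose by 0.73 ± 0.046 (edgeR adjusted p = 8.34e-12), from 169, 158 and 161 to 263, 283 and 262 CPM without overlap. Kinetochore and checkpoint genes fell in 18 of 25 cases, among them the kinase BUB1 (-2.25 ± 0.047), its relative BUB1B (-2.06 ± 0.057) and CENPF (-0.70 ± 0.038), while CENPH rose by 0.28 ± 0.059 and CENPN by 0.17 ± 0.048. Of 14 genes of chromosome structure 10 fell, with securin, PTTG1, at -1.42 ± 0.061 and the condensin SMC4 at -1.003 ± 0.040, and CDCA5, or sororin, which protects cohesin, rose by 0.54 ± 0.037. Of 12 genes of the anaphase-promoting complex and mitotic exit 11 fell and 1 did not pass, with CDC20, its activator, at -1.51 ± 0.038 and the subunit CDC27 at -1.29 ± 0.044.

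Genes of DNA replication and the G1/S transition moved less. Of 72 genes 48 fell and 9 rose, with a median of -0.25. CDT1, which loads the helicase at origins, rose from 38.6, 43.3 and 43.2 to 106, 104 and 111 CPM (log2 1.36 ± 0.050, edgeR adjusted p = 7.81e-16), against most of its role. The helicase subunit MCM6 changed by -1.42 ± 0.041 and the origin recognition subunit ORC2 by -1.24 ± 0.049, whereas MCM7 changed by -0.52 ± 0.038. WDHD1, which ties the polymerase alpha complex to the fork, fell from 58.4, 53.5 and 51.1 to 9.82, 9.94 and 9.02 CPM (log2 -2.50 ± 0.058), and the catalytic subunit POLA1 changed by -1.15 ± 0.047. Cyclin D3, CCND3, changed by -1.40 ± 0.046 and cyclin E1, CCNE1, by -0.84 ± 0.062, but its relative CCNE2 rose by 0.64 ± 0.091 and E2F1 by 0.31 ± 0.051. In homologous recombination and the Fanconi pathway 17 of 32 genes fell and 6 rose, beside 32.7% and 34.1% of all genes. Of the 20 recombination genes 9 fell and 4 rose (median -0.086). RAD50 (-1.79 ± 0.044) and MRE11 (-1.02 ± 0.054), members of the complex that senses double-strand breaks, had the largest falls of the recombination genes, and FANCM changed by -1.22 ± 0.079. BRCA2 rose by 0.25 ± 0.060 and FANCE by 0.86 ± 0.12.

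Most hypoxia genes rose. Of 38 genes tested (39 on the list) 33 rose, 22 of them at least 2-fold, 4 fell and 1 did not pass, with a median log2 change of 1.35. NDRG1, a standard marker of HIF activity, had 60.3, 60.1 and 63.3 CPM at 100 µg/mL and 693, 679.8 and 713 CPM at 500 µg/mL (edgeR adjusted p = 1.39e-22). CA9 had 3.52, 3.63 and 4.69 CPM at 100 µg/mL and 57.1, 61.7 and 56.9 CPM at 500 µg/mL. In both genes the groups lay far apart. BNIP3, which marks mitochondria for removal, rose by 2.54 ± 0.049, and ANGPTL4, an inhibitor of lipoprotein lipase, by 2.46 ± 0.042. JMJD6, a dioxygenase, was the single member among 30 targets outside glycolysis that fell (-0.28 ± 0.054).

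Within the HIF system itself the members moved in opposite directions. HIF1A, the widely expressed alpha subunit (chr14:61695513-61748258), fell from 415, 397 and 399 to 132, 132 and 142 CPM (log2 -1.58 ± 0.047, edgeR adjusted p = 2.23e-17). EPAS1, which encodes the alpha subunit of HIF-2 (chr2:46297407-46386697), rose from 298, 298 and 302 to 806, 776 and 829 CPM (log2 1.43 ± 0.035, edgeR adjusted p = 1.66e-18). The libraries did not overlap in either gene. EGLN3, a prolyl hydroxylase that is itself a HIF target, rose from 11.5, 10.9 and 11.5 to 98.6, 97.5 and 88.7 CPM, and VHL, the ubiquitin ligase subunit that binds hydroxylated HIF, rose by 0.58 ± 0.048. EGLN2 (-0.24 ± 0.049) and HIF1AN, the asparaginyl hydroxylase FIH (-0.23 ± 0.037), fell slightly. Transcript levels do not report HIF protein, which was not measured.

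The core of the hypoxia response element, ACGTG on either strand, was looked for in the promoters of the same list. PPFIA4 and CA9 were chosen for their large rises. The 250 bases before the start of PPFIA4 (chr1:203026241-203026490, plus strand) and CA9 (chr9:35673678-35673927, plus strand) are given with the core in capitals.
PPFIA4: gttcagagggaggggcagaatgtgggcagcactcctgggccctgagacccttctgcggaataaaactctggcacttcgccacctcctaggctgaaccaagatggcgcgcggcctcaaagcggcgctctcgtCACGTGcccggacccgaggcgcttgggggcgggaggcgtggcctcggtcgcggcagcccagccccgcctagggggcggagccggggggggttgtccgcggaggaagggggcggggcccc
CA9: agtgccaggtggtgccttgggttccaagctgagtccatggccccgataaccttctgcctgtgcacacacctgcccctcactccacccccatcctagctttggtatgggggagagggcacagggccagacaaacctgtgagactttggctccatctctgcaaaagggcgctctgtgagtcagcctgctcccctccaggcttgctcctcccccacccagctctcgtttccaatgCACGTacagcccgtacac
PPFIA4 held the core on both strands as the palindrome CACGTG, from 119 bases before the start, and CA9 held it on the minus strand from 18 bases before the start. The core occurred in 58.1% of the 31 hypoxia genes with a window, in 40% of 25 glycolysis genes, in 31.4% of the mitotic genes, in 26.4% of the tested genes and in 21.6% of all windows.

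Genes of glucose uptake and glycolysis also rose for the most part. Of 26 genes 21 rose and 3 fell, with a median of 0.63. The rises were uneven along the pathway. HK2 rose 4.96 ± 0.14 on the log2 scale from under 1 CPM, and the pyruvate dehydrogenase kinase PDK1, which keeps pyruvate out of mitochondria, rose from 9.19, 8.55 and 9.15 to 51.02, 55.3 and 53.4 CPM (log2 2.57 ± 0.076). The glucose transporter SLC2A1 had 192, 194 and 188 CPM at 100 µg/mL and 661, 659.5 and 626 CPM at 500 µg/mL (log2 1.76 ± 0.034), and SLC2A3, whose reads can be shared with its paralog SLC2A14, changed by 1.94 ± 0.049. The phosphofructokinases PFKL (-0.42 ± 0.045) and PFKM (-0.43 ± 0.042) and the isomerase TPI1 (-0.28 ± 0.041) fell.

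Targets of p53 rose in 27 of 30 cases, with a median of 0.82. MDM2, the ubiquitin ligase that restrains p53, had 114, 107 and 109 CPM at 100 µg/mL and 201, 206 and 204 CPM at 500 µg/mL (log2 0.89 ± 0.043, edgeR adjusted p = 9.70e-14), without overlap. The stress gene GADD45A rose by 1.45 ± 0.071, the phosphatase PPM1D by 1.11 ± 0.049 and SUSD6 by 1.34 ± 0.058, and TIGAR, a phosphatase that lowers glycolytic flux, changed by -0.54 ± 0.065. Among death effectors BBC3, or PUMA, rose from 7.89, 9.05 and 7.66 to 34.02, 33.5 and 33.2 CPM (log2 2.03 ± 0.080), PMAIP1, or NOXA, by 1.13 ± 0.10, and the receptors FAS and TNFRSF10B by 1.18 ± 0.076 and 0.64 ± 0.042. BAX changed by -0.087 ± 0.037 (edgeR adjusted p = 0.0411), a call lost without scaling factors and on leaving out any 1 of 5 libraries (all but the library numbered 1 at 100 µg/mL).

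In the wider BCL2 family and among caspases 18 of 31 genes rose and 8 fell, beside 34.1% and 32.7% of all genes. Members of opposite function rose side by side. Of the antiapoptotic members BCL2L1 rose by 0.98 ± 0.048, BCL2L2 by 0.83 ± 0.048 and MCL1 by 0.38 ± 0.043, while BCL2, at 3.27, 3.74 and 3.48 CPM, changed by -0.53 ± 0.13. BMF, a proapoptotic BH3-only member, rose from 3.61, 3.27 and 3.68 to 14.4, 14.2 and 13.9 CPM (log2 2.01 ± 0.13). BIRC3, an inhibitor of apoptosis and NF-kB target, rose by 1.65 ± 0.053 and CFLAR, which blocks caspase 8, by 0.33 ± 0.040. Cytochrome c, CYCS, changed by -0.49 ± 0.081 and CASP8 by -0.23 ± 0.045. Of 43 genes of autophagy and the lysosome 28 rose and 10 fell. Among the 19 lysosome genes 10 rose and 6 fell. The cargo receptors SQSTM1 (0.81 ± 0.033) and OPTN (1.13 ± 0.049) rose, as did the lysosomal sialidase NEU1 (0.84 ± 0.074), while ATG2A (-0.85 ± 0.054) and the proton pump subunit ATP6V0D1 (-0.64 ± 0.045) fell.

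**Figure D2:**
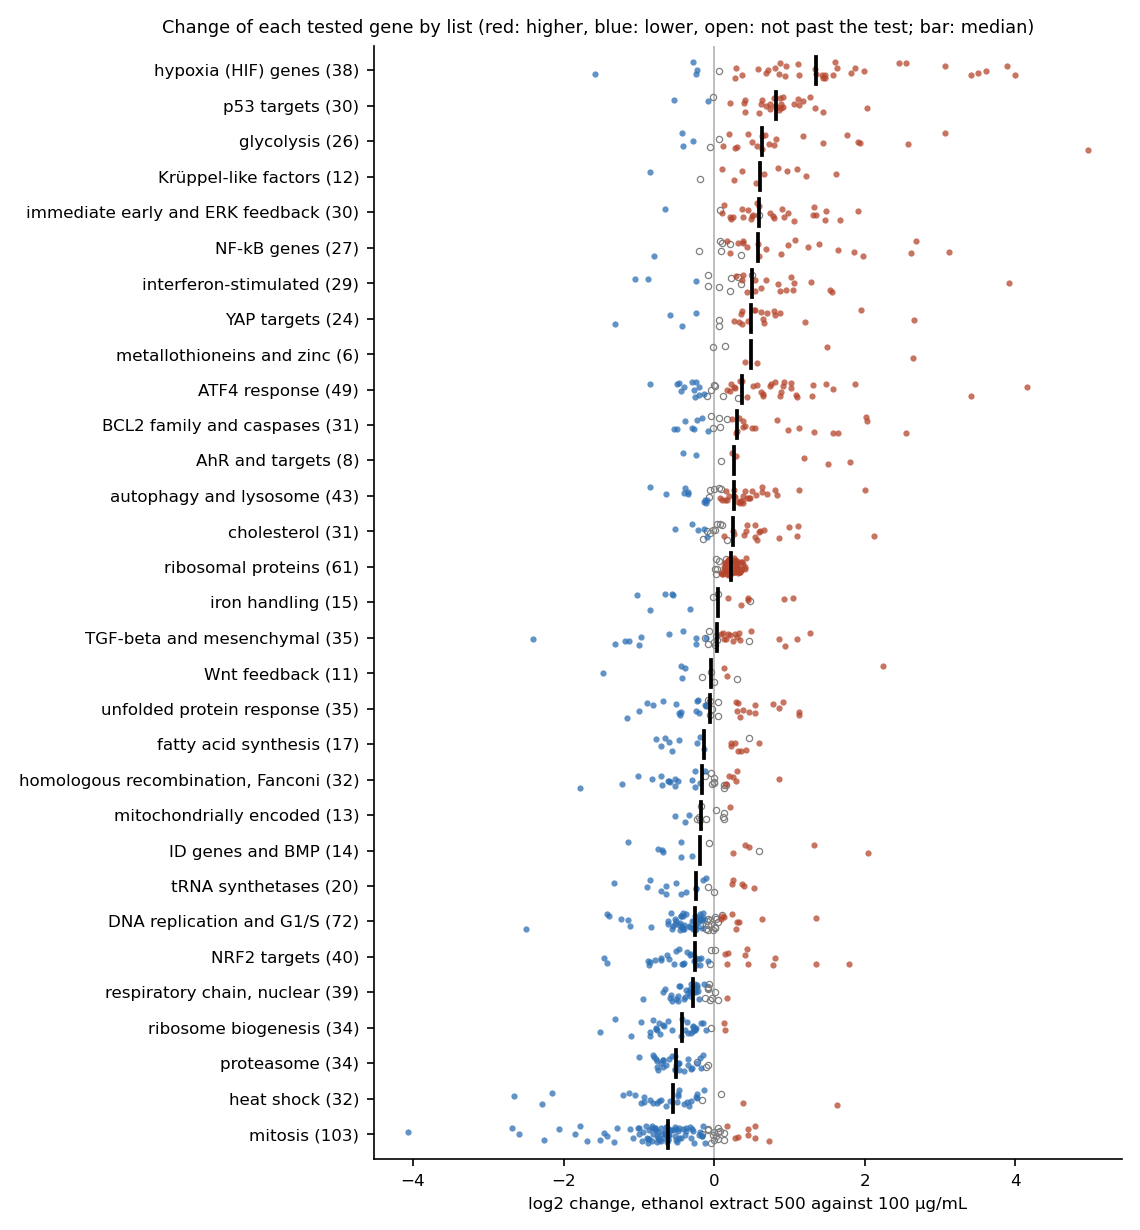
Log2 change between 100 and 500 µg/mL of ethanol extract for every tested gene of 31 lists, ordered by list median (black bar), with genes past the test in red (higher) or blue (lower) and the others open. Hypoxia genes have the highest median (1.35) and mitosis genes the lowest (-0.62), and most lists hold genes past the test in both directions.

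The integrated stress response, in which kinases acting on eIF2 raise the translation of ATF4, was higher in part. Of 49 genes 31 rose and 12 fell. Among kinases and factors 8 of 12 rose, ATF4 by 0.74 ± 0.040, ATF3 by 1.32 ± 0.093, the kinase PERK, EIF2AK3, by 1.03 ± 0.051, and the phosphatase subunit PPP1R15A, which resets the response, by 1.49 ± 0.066. Effectors rose in 10 of 11 cases. TRIB3, a pseudokinase, had 44.4, 46.4 and 42.5 CPM at 100 µg/mL and 164, 162 and 160.0 CPM at 500 µg/mL (log2 1.87 ± 0.047), STC2 had 15.6, 14.7 and 16.7 CPM at 100 µg/mL and 170.2, 163 and 169 CPM at 500 µg/mL, and the cytokine GDF15 rose by 1.58 ± 0.060. STC2 also belongs to the hypoxia list. Amino acid synthesis was mixed, with 7 of 17 genes higher and 8 lower, beside 34.1% and 32.7% of all genes. MTHFD2, an enzyme of mitochondrial one-carbon metabolism, rose by 0.92 ± 0.053 and asparagine synthetase, ASNS, by 0.57 ± 0.036, while PSPH changed by -0.85 ± 0.064 and GOT1 by -0.49 ± 0.050. The transporters SLC1A4 (0.93 ± 0.059) and SLC38A2 (0.81 ± 0.056) rose, and SLC7A5 (-0.43 ± 0.032) and its partner SLC3A2 (-0.20 ± 0.053) fell. Cytosolic tRNA synthetases, known targets of ATF4, fell in 13 of 20 cases and rose in 5, with VARS1 at -1.33 ± 0.043 and CARS1 at 0.39 ± 0.045.

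Most chaperones of the endoplasmic reticulum fell in this step and had risen in the one below it. Of the 17 chaperones and folding enzymes 12 fell and 3 rose from 100 to 500 µg/mL, with a median of -0.25. From 20 to 100 µg/mL 15 of the 17 rose, with a median of 0.25, beside 1.01% of all genes called higher and 1.28% called lower in that comparison. Both steps use the 3 libraries at 100 µg/mL, so a high value there moves them in opposite directions. HSP90B1, the reticulum's HSP90, stood at 958, 988 and 959 CPM at 20 µg/mL, 1199, 1199 and 1146 CPM at 100 µg/mL and 533, 525 and 530.5 CPM at 500 µg/mL (log2 0.29 ± 0.030, then -1.16 ± 0.030). HSPA5, or BiP, had 636, 649 and 650.4 CPM at 20 µg/mL, 753, 728 and 726 CPM at 100 µg/mL and 461, 462 and 458 CPM at 500 µg/mL. At 500 µg/mL both lay under the 6 libraries of the lower doses. The HSP70-like chaperone HYOU1 changed by -0.81 ± 0.041, and P4HB, which also forms part of collagen prolyl hydroxylase, rose by 0.55 ± 0.029. DNAJC3, an inhibitor of eIF2 kinases, rose by 0.54 ± 0.056. Of 7 other genes of the unfolded protein response, sensors and factors among them, 4 rose and 2 fell. ERN1, or IRE1, rose by 1.12 ± 0.055, HERPUD1 by 1.12 ± 0.035 and DNAJB9 by 0.86 ± 0.087. XBP1 changed by -0.23 ± 0.045 and SDF2L1 by -0.99 ± 0.10. Of 11 genes of degradation and trafficking 6 rose, EDEM1 furthest (0.91 ± 0.057), and 1 fell.

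**Figure D3:**
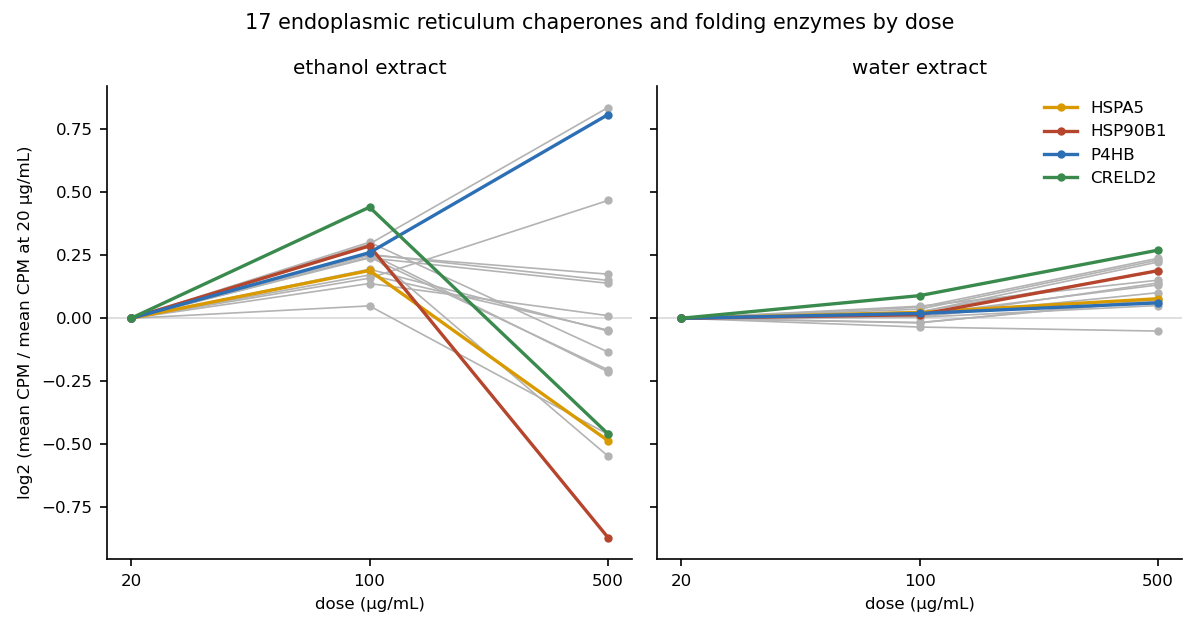
Log2 ratio of the mean CPM (3 libraries) at each dose to that at 20 µg/mL, for 17 chaperones and folding enzymes of the endoplasmic reticulum with the ethanol extract (left) and the water extract (right). With ethanol extract the lines rise to 100 µg/mL and most then fall at 500 µg/mL, HSP90B1 furthest, while P4HB goes on rising. With water extract the median log2 change from 100 to 500 µg/mL is 0.10, and 4 of the 17 genes were called in that step.

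Heat shock chaperones of the cytosol fell in 28 of 32 cases and rose in 2, with a median of -0.54 and 6 genes at least 2-fold lower. HSPA1A had 315, 333 and 326 CPM at 100 µg/mL and 50.1, 49.4 and 54.9 CPM at 500 µg/mL (log2 -2.66 ± 0.041), and its near-identical paralog HSPA1B changed by -2.15 ± 0.055, so that the split of reads between them is uncertain while both fell. HSP90AA1, the inducible HSP90, went from 2283, 2272 and 2242 to 1140.4, 1168 and 1145 CPM (log2 -0.98 ± 0.028) and its cochaperone FKBP4 changed by -1.22 ± 0.032. DNAJA4 (1.63 ± 0.29) and the small heat shock protein HSPB8 (0.38 ± 0.073) rose. A heat shock element read as GAANNTTC was found in the promoter windows of 27.6% of 29 genes of this list, 4.7% of the tested genes and 6.9% of all windows. HSPA1A and HSPA4L, an HSP110 relative (log2 -2.28 ± 0.083), were both chosen for their large falls, after their values were seen. The 250 bases before HSPA1A (chr6:31815293-31815542, plus strand) hold the element 106 bases before the start, shown in capitals. The same stretch before HSPA4L holds none.
HSPA1A: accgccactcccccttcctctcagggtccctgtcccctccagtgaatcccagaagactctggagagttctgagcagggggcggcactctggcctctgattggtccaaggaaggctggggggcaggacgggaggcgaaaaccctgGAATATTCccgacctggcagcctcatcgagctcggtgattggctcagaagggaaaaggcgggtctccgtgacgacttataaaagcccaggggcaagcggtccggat

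Proteasome subunits fell in 31 of 34 cases and 3 did not pass (median -0.51). The regulatory particle subunits PSMC4 (-0.76 ± 0.030), PSMD1 (-0.77 ± 0.031) and PSMD11 (-0.76 ± 0.033) were among the larger falls. Nucleolar factors of ribosome biogenesis fell in 31 of 34 cases (median -0.43). NOP56, of the snoRNP that methylates ribosomal RNA, had 234, 240.2 and 238 CPM at 100 µg/mL and 93.5, 97.9 and 95.3 CPM at 500 µg/mL (log2 -1.31 ± 0.034), and BOP1, which processes the large subunit, changed by -1.52 ± 0.061. FBL, the methyltransferase that acts with NOP56, rose by 0.15 ± 0.037, and MYC, a known driver of these genes, by 0.14 ± 0.041, which did not pass without the filter on low counts. Transcripts of ribosomal proteins rose in 54 of 61 cases, by small amounts (median 0.23), and the other 7 did not pass. Examples were RPL12 at 0.40 ± 0.040 and RPS3 at 0.37 ± 0.036. Many of them have processed pseudogenes, so single values are uncertain. Nuclear-encoded subunits of the respiratory chain fell in 29 of 39 cases (median -0.28), the ATP synthase subunit ATP5MC1 furthest (-0.94 ± 0.042). Of the 13 mitochondrially encoded genes 3 fell, MT-CO3 (-0.51 ± 0.084), MT-ND2 (-0.39 ± 0.12) and MT-ND3 (-0.34 ± 0.080), 9 did not pass and 1 rose. The gene that rose, MT-CYB, changed by 0.21 ± 0.093 (edgeR adjusted p = 0.0498), a call lost with RLE factors, with the vehicle libraries added, with DESeq2 and on leaving out library 2 or 3 at 500 µg/mL or library 1 or 2 at 100 µg/mL.

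NRF2 targets and their regulators went separate ways. Among glutathione and thioredoxin genes 11 of 15 fell, and among genes of NADPH supply and detoxification 16 of 19. The exporter ABCC3, which carries conjugates out of the cell, had 519, 509.9 and 535 CPM at 100 µg/mL and 189, 189 and 205 CPM at 500 µg/mL (log2 -1.42 ± 0.040, edgeR adjusted p = 9.16e-18). PGD, an NADPH-forming enzyme of the pentose phosphate pathway, changed by -0.70 ± 0.031, the transaldolase TALDO1 by -0.70 ± 0.040 and the peroxidase GPX2 by -0.88 ± 0.076. All 6 regulators rose, NFE2L2, which encodes NRF2, by 0.43 ± 0.034, the repressor BACH1 by 1.35 ± 0.064 and the partner MAFF by 1.79 ± 0.10. HMOX1, which breaks down heme, fell from 109, 113 and 105 to 61.9, 62.6 and 56.9 CPM (log2 -0.85 ± 0.044). In the aryl hydrocarbon receptor list (8 tested of 10) 5 genes rose and 2 fell. The cytochrome CYP1B1 rose by 1.20 ± 0.047 and TIPARP by 1.81 ± 0.052, while NQO1 and ALDH3A1, which NRF2 also drives, changed by -0.41 ± 0.039 and -0.24 ± 0.054.

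Genes of metal handling showed separate responses. The metallothionein MT1X rose from 7.51, 6.82 and 6.76 to 44.3, 45.6 and 41.9 CPM (log2 2.64 ± 0.067) and MT2A by 1.49 ± 0.051. Metallothioneins are near-identical, and 3 of the 6 on the list stayed under the filter. The zinc exporter SLC30A1 (0.41 ± 0.082) and the importer SLC39A10 (0.57 ± 0.045) rose as well. These 4 were the only rises among the 6 genes tested of the 9 on the list of metallothioneins and zinc response. The other 2 did not pass, a metallothionein among them. Of 15 iron genes 6 rose and 6 fell, shares near those of all genes. FBXL5, the iron sensor that destroys IRP2, fell from 30.97, 32.3 and 28.97 to 14.6, 15.7 and 15.2 CPM (log2 -1.02 ± 0.066), while the mitochondrial iron importer SLC25A37 (1.04 ± 0.040) and the zinc and iron carrier SLC39A14 (0.93 ± 0.047) rose.

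Lipid genes moved in both directions. Of 31 cholesterol genes 17 rose and 5 fell, with the exporter ABCG1 at 2.12 ± 0.11, ABCA1 at 1.11 ± 0.068 and the SREBP retention factor INSIG1 at 1.10 ± 0.054. Among the synthesis enzymes SC5D (0.99 ± 0.053) and CYP51A1 (0.86 ± 0.052) rose, and HMGCS1 (-0.52 ± 0.042) and FDPS (-0.30 ± 0.047), earlier in the pathway, fell. In fatty acid synthesis 7 of 17 genes rose and 9 fell, beside 34.1% and 32.7% of all genes. The steps that build the chain, ACLY (-0.77 ± 0.028), ACACA (-0.60 ± 0.032) and FASN (-0.65 ± 0.035), were lower, and the desaturase SCD (0.42 ± 0.030) and acetate-activating ACSS2 (0.59 ± 0.075) were higher. From 20 to 100 µg/mL 5 of the 17 genes were already called lower and 0 higher, beside 1.28% of all genes called lower. That comparison shares the libraries at 100 µg/mL.

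In 5 of 8 lists of signalling genes most members rose. NF-kB genes rose in 20 of 27 tested of 33 and fell in 1. NFKB2 rose by 1.25 ± 0.057, RELB by 1.39 ± 0.054 and TNIP1, which damps the pathway, from 94.5, 106 and 99.8 to 388, 388 and 405 CPM (log2 1.97 ± 0.060). The adhesion receptor ICAM1 had 1.13, 1.22 and 1.41 CPM at 100 µg/mL and 8.17, 7.89 and 8.15 CPM at 500 µg/mL, and CXCL8 1.17, 1.11 and 1.25 CPM at 100 µg/mL and 10.1, 10.7 and 10.2 CPM at 500 µg/mL. The related chemokine CXCL2 changed by -0.80 ± 0.18. IL6, TNF and IL1B did not reach the filter. Interferon-stimulated genes rose in 18 of 29 cases and fell in 3, with HLA-E higher by 0.54 ± 0.042 and the antiviral synthetase OAS3 by 0.54 ± 0.034. HLA genes are alike and polymorphic, so their single values are uncertain.

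Immediate early factors and ERK feedback genes rose in 27 of 30 cases (median 0.60). JUN had 33.3, 35.3 and 32.8 CPM at 100 µg/mL and 96.5, 91.7 and 94.2 CPM at 500 µg/mL (log2 1.48 ± 0.044), the ERK phosphatases DUSP5 and DUSP6 rose by 1.67 ± 0.039 and 1.33 ± 0.078, and the ligand HBEGF by 1.91 ± 0.12, while its relative AREG changed by -0.65 ± 0.054. Krüppel-like factors rose in 10 of 12 cases, KLF11 by 1.61 ± 0.070 and KLF7 by 1.10 ± 0.045, and KLF10 changed by -0.85 ± 0.051. YAP targets rose in 18 of 24 cases, among them CCN2 (1.20 ± 0.044) and IGFBP3, a binding protein of insulin-like growth factors that is also known from hypoxia, at 158, 163 and 182 CPM at 100 µg/mL and 1058, 1035 and 1076 CPM at 500 µg/mL (log2 2.65 ± 0.065). TGF-beta and mesenchymal genes were higher in 16 of 35 cases and lower in 11, shares not far from those of all genes. Of 15 ligands, receptors and feedback genes 9 rose and 2 fell. Of 20 mesenchymal and matrix genes 7 rose and 9 fell (median -0.089). Vimentin, VIM, rose from 910.1, 959 and 939 to 2034, 1980.3 and 1981 CPM (log2 1.09 ± 0.030), while TGFB2 (-1.32 ± 0.043), the integrin ITGB6 (-2.41 ± 0.15) and TGFBI (-0.98 ± 0.039) fell. From 20 to 100 µg/mL, a step that shares the libraries at 100 µg/mL, 10 genes of the list were called lower, among them ITGB6 (-0.53 ± 0.10). Wnt genes gave 3 rises and 4 falls among 11 tested of 16, shares near those of all genes, with the antagonist DKK1 at -0.43 ± 0.047 and the Wnt deacylase NOTUM at 2.25 ± 0.33. Of the epithelial markers 6 of 8 fell, with the keratins KRT8 at -0.65 ± 0.038, KRT18 at -0.44 ± 0.035 and KRT7 at -0.35 ± 0.040, and MUC1 rose by 1.09 ± 0.15. Summed, the 8 markers went from between 6160 and 6702 to between 4574 and 4689 CPM. Alveolar and airway markers went the other way for the most part, with 3 of 5 tested higher and 1 lower (median 0.24). Summed, the 12 markers of that role went from between 186.9 and 195.4 to between 209.6 and 218.6 CPM.

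The same step of the water extract was tested against that of the ethanol extract. Here 9030 of 16766 genes differed between the steps, 4449 with a higher (26.5%) and 4581 with a lower (27.3%) log2 change for the ethanol extract. Among them were 4318 of the 5710 genes that rose with ethanol, in the higher direction, and 4421 of the 5489 that fell, in the lower. By itself the water step called 248 genes, 0.71% of all higher and 0.769% lower, with 2067 at an unadjusted p under 0.05. The 4 groups of this test share no library. Mitotic genes had a median of -0.023 in the water step, and in 78 of the 103 the test found a lower change with ethanol. Hypoxia genes had a median of -0.022 in the water step, and in 33 of 38 the change was higher with ethanol. AURKB stood at 80.3, 84.9 and 87.1 CPM at 100 µg/mL and 81.4, 82.8 and 84.8 CPM at 500 µg/mL of water extract, and its steps differed by -0.74 ± 0.056 (edgeR adjusted p = 3.34e-10).

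Some genes were called in the water step itself, among them 7 of 14 ID and BMP genes, 7 of 35 TGF-beta and mesenchymal genes and 6 of 15 iron genes. So were 4 of 17 chaperones and folding enzymes of the endoplasmic reticulum, with a median log2 change of 0.10. In the ethanol step 5 of the ID and BMP genes rose and 7 fell, beside 34.1% and 32.7% of all genes. Their change was higher than with water in 7 and lower in 3, beside 26.5% and 27.3% of all genes. HMOX1 went from 134, 131 and 128 to 290.4, 287 and 272 CPM between 100 and 500 µg/mL of water extract (log2 1.11 ± 0.041), against the fall with ethanol, and the steps differed by -1.97 ± 0.060 (edgeR adjusted p = 1.64e-16). FBXL5 changed by 0.40 ± 0.058 with water and -1.02 ± 0.066 with ethanol, a difference of -1.42 ± 0.088 (edgeR adjusted p = 1.50e-11). The ID genes block basic helix-loop-helix factors and are targets of BMP signalling, and ID4 and ID2 fell in both steps. ID4 changed by -1.25 ± 0.088 with water and -1.14 ± 0.084 with ethanol, a difference of 0.11 ± 0.12 (edgeR adjusted p = 0.513), and ID2 by -0.77 ± 0.053 and -0.68 ± 0.052, a difference of 0.093 ± 0.074 (edgeR adjusted p = 0.305), so that neither difference passed the test. ATOH8, another target of this pathway, fell with water (-1.004 ± 0.11) and rose with ethanol (0.46 ± 0.092). GREM1, a secreted BMP antagonist, rose in both, by 0.42 ± 0.094 with water and 2.05 ± 0.081 with ethanol, and the difference of 1.63 ± 0.13 passed (edgeR adjusted p = 5.04e-10).

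**Figure D4:**
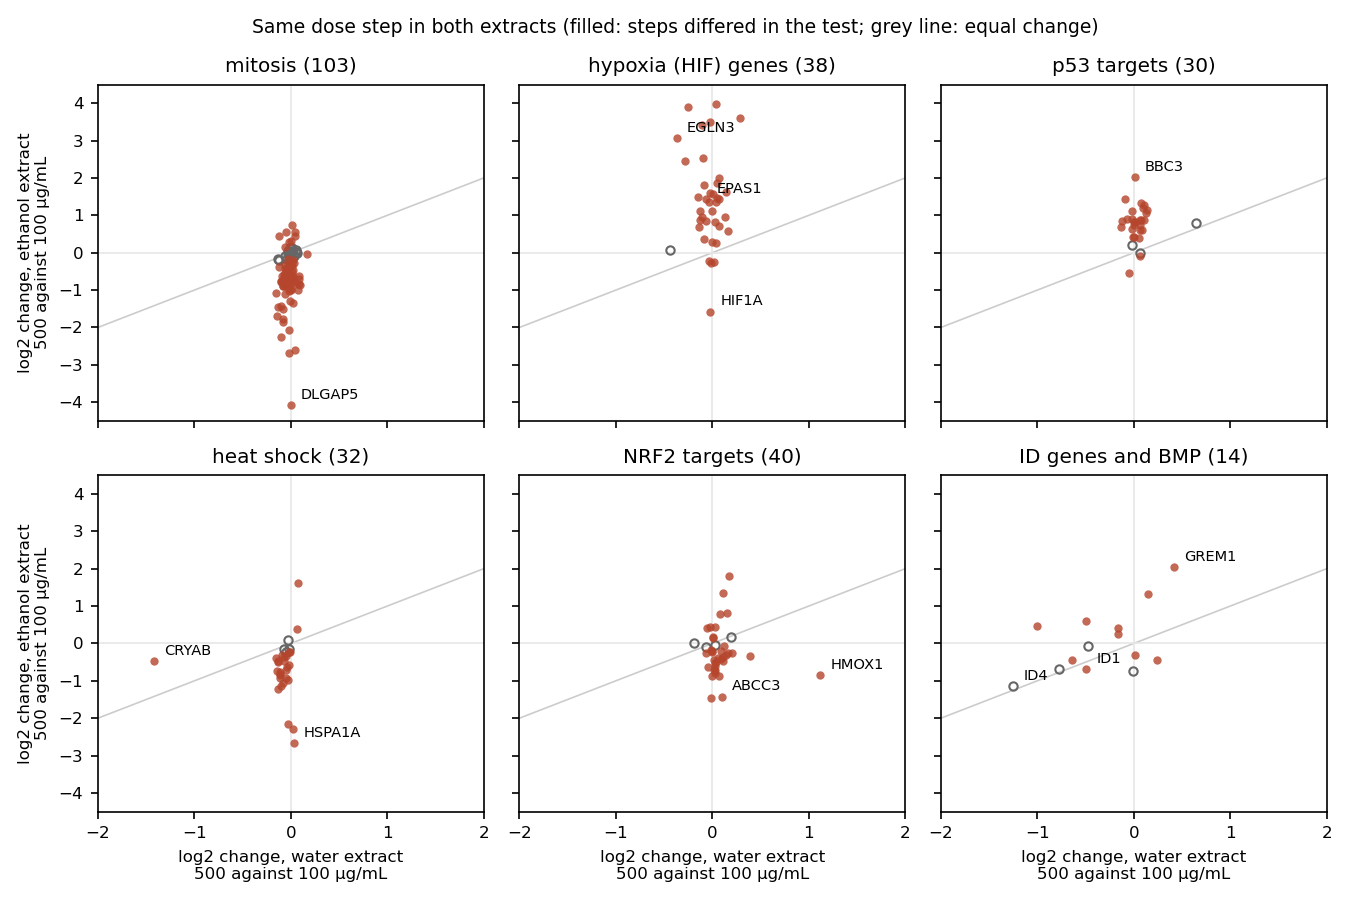
Log2 change from 100 to 500 µg/mL with the water extract (x axis) against that with the ethanol extract (y axis) for the tested genes of 6 lists, filled where the steps differed in the test and open where they did not, with a grey line at equal change. Most mitosis, hypoxia and p53 genes lie along the vertical at a water change near 0, and ID4 lies on the line of equal change.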

How the data were processed

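RNA of A549 cells was sequenced with a directional library kit, per the labels' protocols. The authors deposited a table of expected counts per gene for 60675 Ensembl genes, made with RSEM 1.3.3 on GRCh38, with STAR, Trim Galore and FastQC also named, per the submitters' processing notes. The strand setting of the counting is not given in the sources used here. Of the deposited values 89.2% were whole; all were rounded. RSEM shares reads that match several genes, so values of near-identical paralogs are uncertain. Current symbols were found for 56558 genes.

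The 18 extract libraries of batch 1 (6 groups of 3) were fitted together in edgeR 4.0.16 under R 4.3.3, with TMM factors (0.9564 to 1.0256), filterByExpr, the quasi-likelihood test and Benjamini-Hochberg adjustment over 16766 genes; a gene was called at an adjusted p under 0.05. No 2 replicates of batch 1 held identical values (0 of 21 pairs). Beside each list, counts past the test and the median stand without a test of the list. The comparison and the gene lists were chosen with earlier results of these data known, so no list is independent evidence. Named genes are the 12 largest rises and falls among called genes with at least 10 CPM in 1 group and no overlap between groups, and in each role of a list up to 4 called genes with the smallest p and those called against most of their role. The same rule gave the 5 largest differences between the extracts' steps in each direction. A few genes that the rule gives are not reported here. A fold against a group with no count uses a floor of 3 counts over the group, for counting error only. Promoter windows (250 bases before to 50 after the start) are from RefSeq, GRCh38.p14, matched by symbol. Alternatives were RLE or no scaling factors, no filter, DESeq2 1.42.0, other library sets, a replicate block, no mitochondrially encoded genes, glmTreat at 1.5-fold, and leaving out each library.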

Additional observations from a re-analysis of the deposited data

Results flagged for a closer look

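The step from 100 to 500 µg/mL differed between the ethanol and the water extract in 9030 genes by the test of the difference itself (edgeR quasi-likelihood test of the interaction, adjusted p under 0.05). MYOD1 is left out of the order that follows, since it had no count at 100 µg/mL of either extract and its difference could not be fitted with a usable error; with water extract at 500 µg/mL it had 0.0437, 0 and 0 CPM. Among the other genes of at least 10 CPM whose libraries did not overlap, the log2 change with ethanol exceeded that with water most in HK2 (4.96), CA9 (4.14), PPFIA4 (3.96), TMEM158 (3.53) and NDRG1 (3.53). Of the genes reported here, it lay furthest below that with water in DLGAP5 (-4.07), SDS (-3.89), SLCO1B3 (-3.39) and PIF1 (-3.12). SLCO1B3, an organic anion transporter known from hepatocytes, stood at 10.2, 10.02 and 9.501 CPM at 100 µg/mL and 0.987, 1.29 and 0.591 CPM at 500 µg/mL of ethanol extract, and at 11.7, 11.6 and 10.3 CPM and 11.8, 11.2 and 10.8 CPM of water extract. SDS stood at 21.9, 23.6 and 19.98 CPM and 13.7, 16.7 and 15.4 CPM at these doses of water extract.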

How the results depend on the processing

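The count of 11199 genes called in the ethanol step was 11176 with RLE factors, 11025 without scaling factors, 11580 without the filter, 11093 with the vehicle libraries added, 11249 with the 6 libraries alone and 10215 with DESeq2. Which direction had more calls depended on these choices: 5699 higher and 5881 lower without the filter, 5504 and 5589 with the vehicle libraries, and 5071 and 5144 with DESeq2. Tested against a change of 1.5-fold instead of no change (glmTreat), 2992 genes were called, since that test asks for a larger change. Leaving out 1 library gave 10598 to 10766 genes for the step, 2243 to 2314 for calls of at least 2-fold and 8562 to 8754 for the difference between the extracts. With the replicate block the counts were 11444, 2214 and 9369. The labels' numbers do not tie libraries to a shared culture. Deviations of same-numbered libraries at 500 and 100 µg/mL correlated at 0.0438, 0.016 and 0.0298 over genes, and each library correlated best with its own number. In every extract group the library numbered 3 had the highest mitochondrial share and the lowest TMM factor. These are hints of an effect of the number, from the data and not from the design, and the main fit did not model it. Of 341 genes named by rule, over 4770 alternative values, 100 values no longer passed the test and 0 changed direction; the 10 genes of the extract difference passed in all 200. Medians of lists moved by more than their spread in 26 cases, 19 of them without the filter. A change of sign was counted in 0 cases, but lists with a median near 0 were left out of that count. The difference in mitochondrial share was 0.532 percentage points over the genes tested instead of 0.528. Depth limits what can be said of genes under the filter on low counts, which were not tested in the main comparison; without the filter 2940 genes instead of 2204 were called at 2-fold or more.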

Other observations

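Outside the lists, families of genes sharing a symbol stem moved in 1 main direction, and these families were chosen after their values were seen. Of all 16766 genes tested 34.1% were called higher and 32.7% lower. Zinc finger genes with a ZNF symbol, most of which encode DNA-binding repressors, were higher in 279 of 424 tested and lower in 45 (edgeR adjusted p under 0.05), with a median log2 change of 0.40, beside 0.025 in the water step. On chromosome 19, which carries their large clusters, 148 of 194 were higher and 11 lower (median 0.59), and elsewhere 131 of 230 were higher and 34 lower (median 0.26). Many are weakly expressed paralogs, and among the 204 with a mean of at least 10 CPM 123 were higher and 35 lower (median 0.25). ZNF571 went from 0.860 ± 0.128 to 7.04 ± 0.410 CPM (SD, n = 3 each) and ZNF841 from 9.23 ± 0.875 to 24.4 ± 1.88 CPM, whereas ZNF281 went from 121 ± 6.94 to 64.5 ± 0.461 CPM.

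Proteins of splicing and of folding showed the other direction. Of 34 SRSF and HNRNP genes, which encode splicing factors and RNA packaging proteins, 29 fell and 2 rose (median -0.40). SRSF2 changed by -1.20 ± 0.032 on the log2 scale and HNRNPA2B1 by -0.98 ± 0.034. All 8 subunits of the chaperonin that folds actin and tubulin fell (median -0.59), CCT5 from 355 ± 10.8 to 185 ± 7.36 CPM. Of 77 mitochondrial ribosomal proteins 55 fell and 5 rose (median -0.30). All 7 UDP-glucuronosyltransferase genes tested fell (median -1.27), though genes of the UGT1A cluster share exons and most stood near or under 1 CPM.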
